A study of Bos taurus with 11 samples.

Results

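The subunits of the mitochondrial respiratory chain and of ATP synthase were examined in the uterine endometrium of dairy cows after calving. Members were all probe sets whose 1 annotated symbol begins NDUFA, NDUFB, NDUFC, NDUFS or NDUFV and a digit, is SDHA to SDHD or CYC1, or begins UQCR, COX4 to COX8 or ATP5. Where a gene had several probe sets, the one with the highest mean over the 11 arrays stood for it. This gave 80 genes, of 9155 named genes on the array, from 101 probe sets: 37 in complex I, 4 in complex II, 9 in complex III, 13 in complex IV and 17 in complex V. The name of each gene set its complex, so NDUFA4, now regarded as a subunit of complex IV, was counted with complex I.

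Multiparous Holstein-Friesian cows (mean parity 4.7, previous yield 6477 ± 354 kg, error as the labels give it) were allocated at random to a feeding and milking regime that ran from day 2 postpartum. Mild negative energy balance (n = 5) was set by unlimited grass silage, 8 kg of concentrate (21% crude protein) daily and 1 milking daily. Severe negative energy balance (n = 6) was set by 25 kg of silage, 4 kg of concentrate and 3 milkings daily. In this state the energy taken in with feed does not cover what the animal uses, largely for milk. Endometrium, which lines the uterus, was collected at slaughter, 14 ± 0.4 days postpartum by the protocol. The title of the series gives days 14 to 16. Each animal's RNA went onto 1 bovine Affymetrix array. Breed and tissue were shared by all cows, and the study had no group in positive energy balance and no sample from before the regimes.

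Complexes I and II pass electrons from NADH and succinate to coenzyme Q. Complex III hands them to cytochrome c and complex IV to oxygen, while complexes I, III and IV pump protons out of the matrix. ATP synthase, complex V, makes ATP as these protons return. Most subunits are encoded in the nucleus and a few in mitochondrial DNA. The members here are all nuclear, and none of the 13 subunits encoded in mitochondrial DNA had a named probe set, so they were not analysed here.

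The arrays gave RMA log2 signals, in which 1 unit is a doubling. Any pair of arrays correlated at 0.948 to 0.991. Genes with a mean signal under 5.52, below which the dimmest 40% of probe sets lie, are called dim, and COX6A2 was the 1 dim member. Of 13 measured epithelial markers 1 was dim, and of 10 stromal and 8 smooth muscle markers 0 were. RNA of genes that mark epithelium, stroma and smooth muscle was thus present, which does not show the structures it came from. The difference between the 3' and 5' probe sets of the actin and GAPDH controls, a sign of RNA quality, ran from 0.49 to 0.90 in mild and from 0.57 to 0.78 in severe cows. In bulk tissue, fewer cells of a type and less RNA per cell cannot be told apart.

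Most subunit genes had a slightly lower mean signal in severe than in mild cows. The mean was lower for 76 of 80 members, against 51.1% of all genes, and the median difference of the members was -0.16 log2 units, against -0.0038 over all genes. The sizes were small, from -0.49 for NDUFA11 to 0.13 for COX6B2, with standard errors of 0.06 to 0.18. No single member passed the test across all probe sets. Limma called 0 of 24016 probe sets (0.0%) at an adjusted p under 0.05, and the members' limma adjusted p ran from 0.282 to 0.988. At an unadjusted p under 0.05 limma gave 26 of 80 members as lower, or 32.5%, against 7.46% of all genes, and 0 as higher, against 8.45%. Among genes outside the dimmest 40% of probe sets the share that was lower at this p was 8.61%, and 50.6% had a lower mean. Over all probe sets 5.88% were lower and 6.97% higher at this p. The groups did not overlap for 2 members, NDUFA3 and NDUFB7, with severe cows lower, against 0.437% of genes and 0.408% of probe sets.

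**Figure D1:**
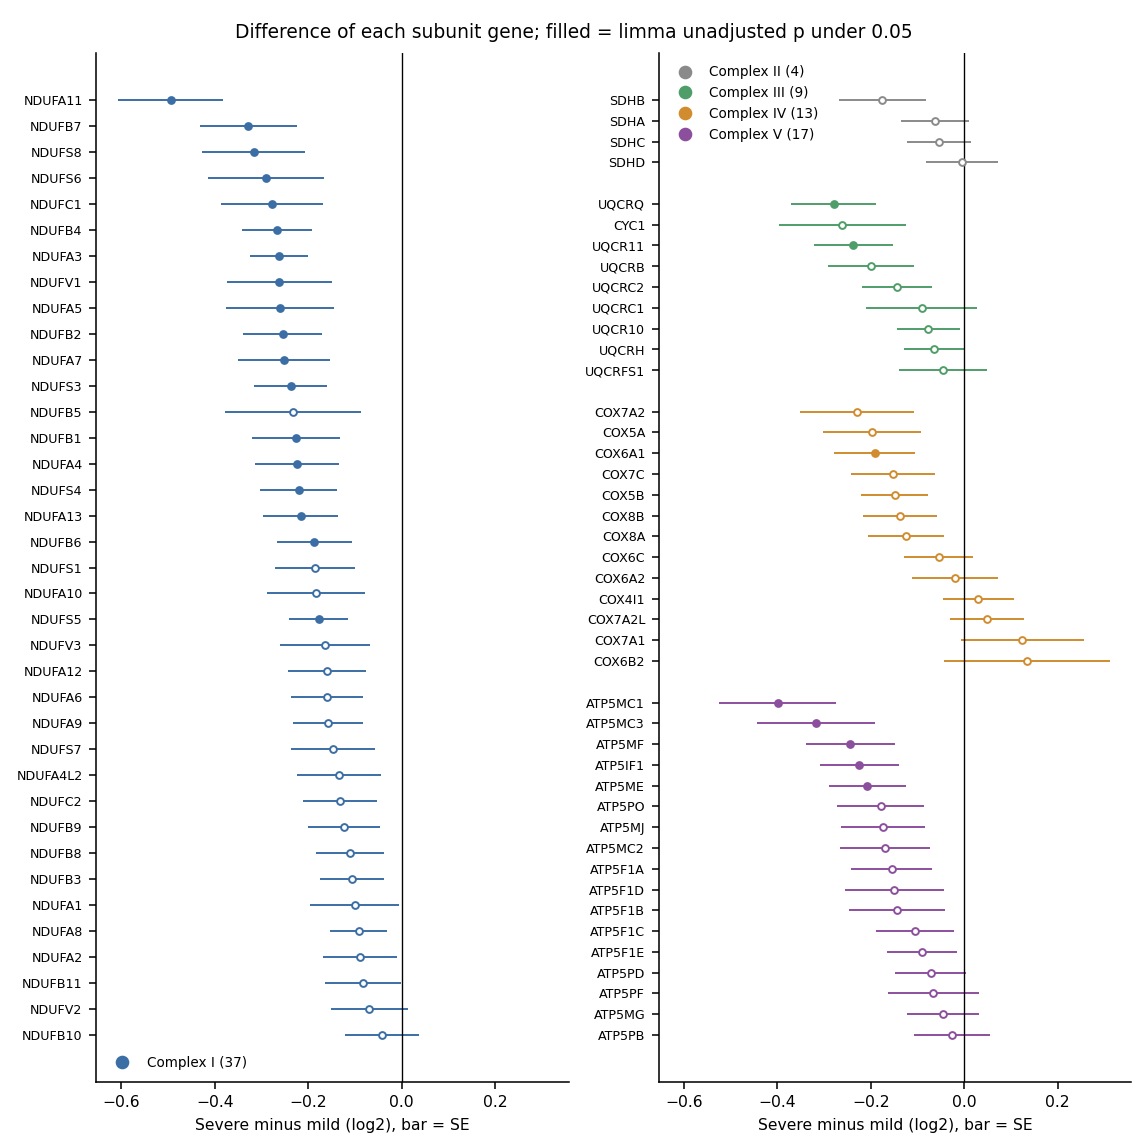
Difference between the means of severe (n = 6) and mild (n = 5) cows in log2 units (x axis) for each of the 80 subunit genes (y axis), grouped by complex, with the standard error as a bar. Filled points have a limma unadjusted p under 0.05. All 37 complex I points lie left of 0, and the 4 points right of 0 are COX4I1, COX7A2L, COX7A1 and COX6B2 in complex IV.

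**Figure D2:**
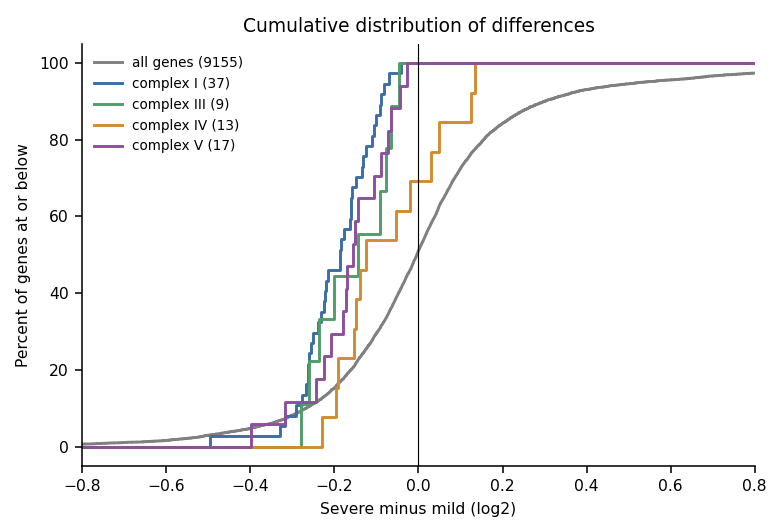
Percent of genes (y axis) whose difference between severe and mild cows, in log2 units (x axis), lies at or below a value, for all 9155 genes in grey and for complexes I, III, IV and V in colour. At a difference of 0 the grey curve stands at 51.1%, and those of complexes I, III and V have reached 100%.

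The cows did not split cleanly by regime. For each cow the deviation of every member from that gene's mean over the 11 cows was averaged over the 80 members. These averages were 0.12 in mild 1, 0.15 in mild 2, 0.13 in mild 3, 0.14 in mild 4 and -0.11 in mild 5. In the severe group they were -0.10 in severe 1, -0.17 in severe 2, -0.03 in severe 3, -0.16 in severe 4, 0.04 in severe 5 and -0.01 in severe 6. Mild 5 thus lay among the severe cows, and the other 4 mild cows lay above every severe cow. The number of members under their own mean was 8, 9, 4 and 10 of 80 in mild 1 to mild 4 and 72 in mild 5. In severe cows it was 71, 70, 52, 69, 29 and 42, in the order above. Mild 5 was the lowest mild cow for 69 of the 80 members.

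**Figure D3:**
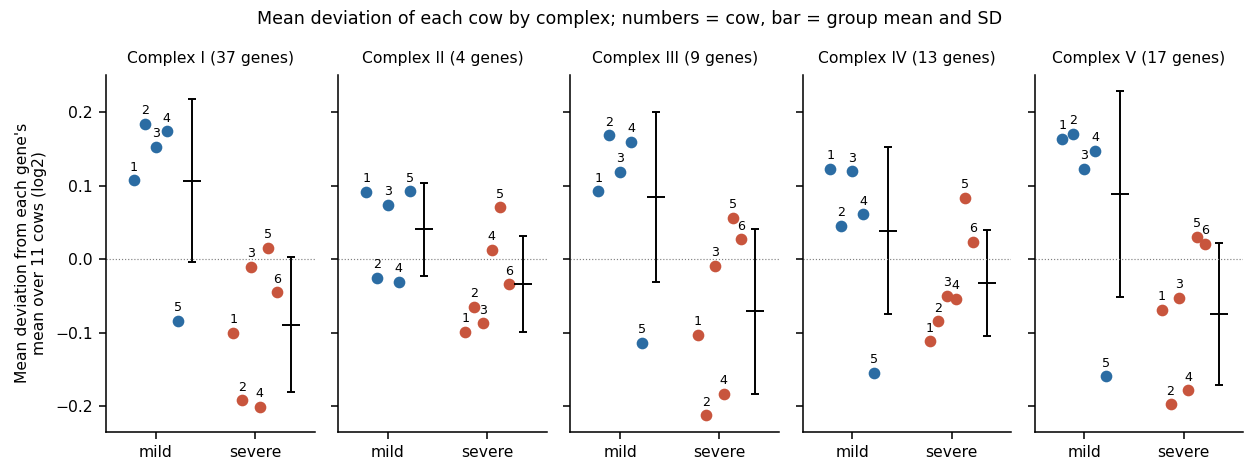
Mean deviation of each cow, in log2 units (y axis), over the members of complexes I to V (panels), with mild cows in blue, severe cows in red and cow numbers beside the points. Bars give the group mean and SD. In complexes I, III, IV and V mild 5 lies under the 4 other mild cows, and in complex II it does not.

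The counts moved with single cows. Without mild 5, a cow singled out after its values were seen, 47 members were lower at an unadjusted p under 0.05, against 11.5% of genes, and the groups did not overlap for 28 members, against 3.62% of genes. The median difference was then -0.21, and the smallest limma adjusted p of any member was 0.117. The count of 26 was 13 without mild 2 (5.49% of genes), 12 without mild 3 (5.09%), 13 without mild 4 (5.21%), 14 without severe 2 (5.20%) and 15 without severe 4 (5.07%). The number of members with a lower mean stayed between 74 and 76 when any 1 cow was left out.

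**Figure D4:**
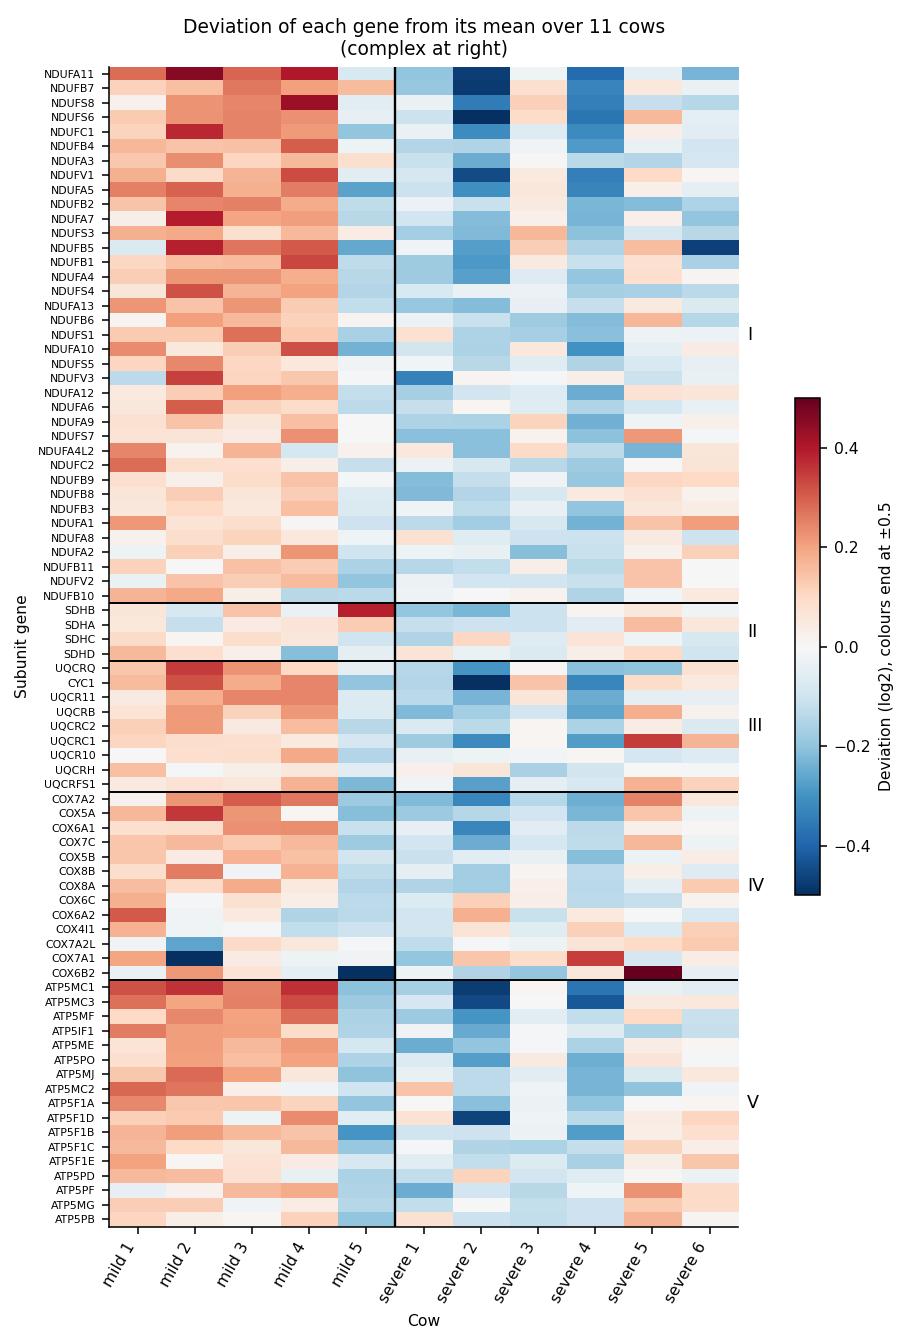
Deviation of each of the 80 subunit genes (rows, by complex) from its mean over the 11 cows (columns), in log2 units, red above and blue below the mean. Columns of mild 1 to mild 4 are mostly red, those of mild 5, severe 1, severe 2 and severe 4 mostly blue, and severe 5 is mixed, with 29 of 80 members under their mean.

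Complex I, NADH dehydrogenase, had the lowest median difference, -0.19, and all 37 members had a lower mean in severe cows. An unadjusted p under 0.05 was found for 18 of 37, or 48.6%, against 7.46% of all genes that were lower at this p. NDUFA4, counted here by name, is among the 18. NDUFA11, an accessory subunit of the membrane arm, had the largest difference. Its signal was 8.74, 8.91, 8.75, 8.86 and 8.38 in mild 1 to mild 5, and in severe cows the lowest, median and highest were 7.99, 8.24 and 8.43. The groups overlapped through mild 5 alone, which lay under severe 3 and severe 5. The difference was -0.49 ± 0.11 (SE; limma adjusted p = 0.282), a severe signal 0.710 times the mild one. The other NDUFA11 probe set, dim at 5.24, differed by -0.05 ± 0.10.

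NDUFA3, another accessory subunit of the membrane arm, was 9.44, 9.53, 9.41, 9.46 and 9.38 in the mild cows, and 9.06, 9.18 and 9.31 were the lowest, median and highest in severe cows. Every severe cow lay below every mild cow, mild 5 included. Its difference was -0.26 ± 0.06 (SE; limma adjusted p = 0.284). NDUFB7, which lies on the outer face of the membrane arm, was at 8.66, 8.69, 8.81, 8.75 and 8.70 in mild cows, and at 8.06, 8.43 and 8.62 for the lowest, median and highest severe cow. The groups again did not overlap, and the SD was 0.06 in mild and 0.22 in severe cows. The difference was -0.33 ± 0.10 (SE; limma adjusted p = 0.307). NDUFB4, also of the membrane arm, was at 10.13, 10.11, 10.11, 10.27 and 9.94 in mild and at 9.68, 9.84 and 9.95 in severe cows, a difference of -0.27 ± 0.07 (SE; limma adjusted p = 0.290). Here 5 of 6 severe cows lay below mild 5, the lowest mild cow.

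**Figure D5:**
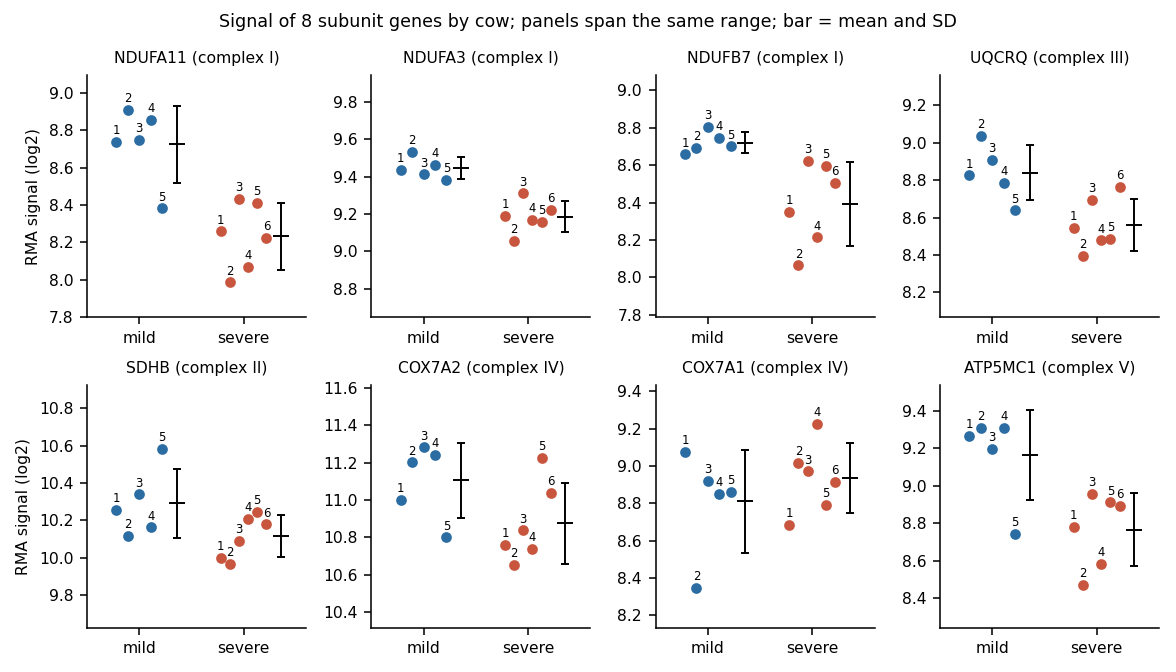
RMA signal in log2 units (y axis) of 8 subunit genes in each mild (blue) and severe (red) cow, with cow numbers beside the points and the group mean and SD as a bar; all panels span the same range. NDUFA3 and NDUFB7 separate the groups, in NDUFA11 and ATP5MC1 mild 5 lies among the severe cows, and in SDHB mild 5 is the highest of all cows.

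The catalytic core of complex I, which carries the flavin and the iron-sulfur clusters or shapes the coenzyme Q site, had 6 measured members of 7 listed. All 6 had a lower mean in severe cows. With 7.46% of all genes lower at an unadjusted p under 0.05, the core had 3 of 6. These were NDUFS3 at -0.24 ± 0.08 (SE), NDUFS8 at -0.32 ± 0.11 and NDUFV1, the subunit that binds NADH, at -0.26 ± 0.11. NDUFS8, which holds iron-sulfur clusters near the membrane, averaged 8.78 ± 0.19 (SD, n = 5) in mild and 8.46 ± 0.18 (SD, n = 6) in severe cows. The remaining core members were NDUFS1 at -0.19 ± 0.09, NDUFS7 at -0.15 ± 0.09 and NDUFV2 at -0.07 ± 0.08. Of the accessory members named NDUFS or NDUFV, NDUFS6 differed by -0.29, NDUFS4 by -0.22, NDUFS5 by -0.18 and NDUFV3 by -0.16. Members outside the naming rule are given by series so that each of the 80 has its difference shown.

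The NDUFA series had 14 members with a median of -0.17. They are accessory subunits spread over both arms, apart from NDUFA4 and its relative NDUFA4L2, counted here by name. With 7.46% of all genes lower at an unadjusted p under 0.05, the series had 6 of 14, NDUFA4 among them. Besides NDUFA11 and NDUFA3 these were NDUFA5 at -0.26 ± 0.12 (SE), NDUFA7 at -0.25 ± 0.10, NDUFA4 at -0.22 ± 0.09 and NDUFA13 at -0.22 ± 0.08. NDUFA13 is also known as GRIM-19. NDUFA4 was 11.37, 11.47, 11.47, 11.43 and 11.11 in mild cows and 10.98, 11.13 and 11.33 for the lowest, median and highest severe cow. Mild 1 to mild 4 lay above all severe cows and mild 5 among them. NDUFA10, NDUFA6, NDUFA12 and NDUFA9 lay between -0.18 and -0.16, NDUFA4L2 at -0.13, and NDUFA1, NDUFA8 and NDUFA2 at -0.10, -0.09 and -0.09. NDUFA4L2, a relative of NDUFA4 that rises in hypoxia, averaged 6.29 ± 0.13 (SD, n = 5) in mild and 6.16 ± 0.15 (SD, n = 6) in severe cows, with overlap (limma adjusted p = 0.546).

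The NDUFB series, in the part of the membrane arm farthest from the coenzyme Q site, had 11 members with a median of -0.19. With 7.46% of all genes lower at an unadjusted p under 0.05, this series had 5 of 11. Beside NDUFB4 and NDUFB7 these were NDUFB2 at -0.25, NDUFB1 at -0.23 and NDUFB6 at -0.19. NDUFB5 differed by -0.23 with a wider standard error of 0.15. NDUFB9, NDUFB8, NDUFB3 and NDUFB11 lay at -0.12, -0.11, -0.11 and -0.08, and NDUFB10 was nearest to 0 of all complex I members, at -0.04 ± 0.08 (SE). In the NDUFC pair NDUFC1 differed by -0.28 ± 0.11 (SE) and NDUFC2 by -0.13 ± 0.08.

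Complex II, succinate dehydrogenase, belongs to the tricarboxylic acid cycle as well as to the chain. Its 4 members had a median of -0.058, and 0 of them had an unadjusted p under 0.05, where 7.46% of all genes were lower. The median was -0.037 without severe 1, -0.094 after a second quantile normalization, -0.098 without mild 2 and severe 5 together, and -0.19 with the neutrophil marker value, described with the cell markers, as a covariate. SDHB, the iron-sulfur subunit, was 10.26, 10.12, 10.34, 10.16 and 10.58 in mild 1 to mild 5, and 9.97, 10.13 and 10.25 were the lowest, median and highest severe values. Mild 5, low for most members, was the highest cow here, and without it the difference moved from -0.18 to -0.10 (limma adjusted p with all cows = 0.455). SDHA, the flavoprotein that oxidises succinate, differed by -0.06 ± 0.07 (SE), or -0.04 without mild 5 and -0.10 without mild 2 or without severe 5. SDHC, a membrane anchor, differed by -0.05 ± 0.07, or -0.09 without mild 5 and -0.03 without severe 1. SDHD, the other anchor, averaged 10.18 ± 0.14 (SD, n = 5) in mild and 10.17 ± 0.08 (SD, n = 6) in severe cows.

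Complex III had 9 members, all with a lower mean in severe cows, and a median of -0.14. An unadjusted p under 0.05 was found for 2 of 9, or 22.2%, against 7.46% of all genes that were lower. UQCRQ, a small subunit, was 8.83, 9.04, 8.91, 8.79 and 8.64 in mild cows and 8.39, 8.51 and 8.76 in the lowest, median and highest severe cow. Only mild 5 overlapped with severe cows, and the difference was -0.28 ± 0.09 (SE; limma adjusted p = 0.307). UQCR11 was at 10.26, 10.40, 10.46, 10.46 and 10.15 in mild cows, and 9.97, 10.12 and 10.28 in severe cows, a difference of -0.24 ± 0.08 (SE; limma adjusted p = 0.317). Mild 5 and mild 1 lay under severe 3, the highest severe cow. UQCRB, another small subunit, differed by -0.20 ± 0.09 (limma adjusted p = 0.394). The subunits that carry electrons were CYC1, cytochrome c1, at -0.26 ± 0.14 (SE), and UQCRFS1, the Rieske iron-sulfur protein, at -0.05 ± 0.09. The core proteins UQCRC2 and UQCRC1 differed by -0.14 and -0.09, and UQCR10 and the hinge protein UQCRH by -0.08 and -0.07. CYC1 in severe 2 was 8.90, the lowest of the 11 cows, and UQCRC1 in severe 5 was 9.93, the highest.

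Complex IV, cytochrome c oxidase, was the complex with members on both sides of 0. Of 13 members 9 had a lower and 4 a higher mean in severe cows, and the median was -0.13. Only 1 member, or 7.69%, was lower at an unadjusted p under 0.05, which is near the 7.46% of all genes. NDUFA4, also lower at this p, is counted by name with complex I, so this share depends on the naming rule. The 1 member counted here was COX6A1, the general form of subunit VIa. It was at 11.51, 11.51, 11.66, 11.66 and 11.32 in mild cows. The lowest, median and highest severe cow were at 11.10, 11.38 and 11.45. Mild 5 overlapped with the severe cows, and the difference was -0.19 ± 0.09 (SE; limma adjusted p = 0.385). Its probe set can share probes with other transcripts, and its other probe set, dim at 5.26, differed by -0.07 ± 0.14. COX5B, which faces the matrix, differed by -0.15 ± 0.07 (SE; limma adjusted p = 0.404), COX5A by -0.20 ± 0.11 and COX7C by -0.15 ± 0.09. COX6C differed by -0.05 ± 0.07. COX4I1, the general form of subunit IV, averaged 11.67 ± 0.12 (SD, n = 5) in mild and 11.70 ± 0.10 (SD, n = 6) in severe cows, a difference of 0.03. It was -0.046 after a second quantile normalization, and with 1 cow left out it lay between 0.0040, without mild 4, and 0.078, without mild 1. It was also 0.0084 without mild 5, 0.0095 without severe 4, 0.0091 without severe 6, 0.020 without severe 2, 0.047 without severe 5 and 0.051 without severe 1.

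Several complex IV subunits exist as a general form and a form of heart, skeletal muscle or testis. COX7A2, the general form of subunit VIIa, was 11.00, 11.20, 11.28, 11.24 and 10.80 in mild cows and 10.65, 10.80 and 11.23 for the lowest, median and highest severe cow. Mild 1, mild 2 and mild 5 lay within the severe range, and severe 3, severe 5 and severe 6 within the mild range. The difference was -0.23 ± 0.12 (SE; limma adjusted p = 0.455). COX7A1, the muscle form, was 9.07, 8.35, 8.92, 8.85 and 8.86 in mild and 8.69, 8.94 and 9.22 in severe cows. Its difference of 0.12 ± 0.13 rested on mild 2 and was 0.0077 without that cow, 0.07 without severe 4 and 0.19 without mild 1. COX8A and COX8B, the general and the muscle form of subunit VIII, differed by -0.13 ± 0.08 and -0.14 ± 0.08. COX6A2, the muscle form of subunit VIa, was dim in every cow and differed by -0.02 ± 0.09. COX6B2, the testis form of subunit VIb, was near the dim limit, at a mean of 5.56. Severe 5 at 6.28 and mild 5 at 4.98 were its extremes, and its difference of 0.13 ± 0.18 was 0.0014 without severe 5, 0.0091 without mild 5 and 0.21 without mild 2. COX7A2L, which joins complexes III and IV into supercomplexes, differed by 0.05 ± 0.08, or -0.0097 without mild 2.

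Complex V had 17 members, all with a lower mean in severe cows, and a median of -0.16. It had 5 of 17, or 29.4%, at an unadjusted p under 0.05, against 7.46% of all genes that were lower. The lowest median of its groups of subunits, -0.32, was in the ring of c subunits, which turns as protons pass. ATP5MC1 was 9.27, 9.31, 9.20, 9.31 and 8.74 in mild 1 to mild 5 and 8.47, 8.84 and 8.96 for the lowest, median and highest severe cow. The 4 other mild cows lay above all severe cows, and mild 5 among them. The difference was -0.40 ± 0.13 (SE; limma adjusted p = 0.307), a severe signal 0.758 times the mild one. ATP5MC3 was at 11.70, 11.62, 11.68, 11.75 and 11.24 in mild cows and at 10.98, 11.39 and 11.48 in severe cows, with the same place for mild 5, and differed by -0.32 ± 0.13 (limma adjusted p = 0.347). ATP5MC2, another gene for the same c subunit, differed by -0.17 ± 0.10 (limma adjusted p = 0.478).

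Among the other membrane subunits ATP5MF differed by -0.24 ± 0.09 (SE; limma adjusted p = 0.340), ATP5ME by -0.21 ± 0.08, ATP5MJ by -0.17 ± 0.09 and ATP5MG by -0.04 ± 0.08. ATP5MF was 10.55, 10.69, 10.65, 10.73 and 10.29 in mild cows and 10.15, 10.33 and 10.55 in severe cows, where severe 5 reached the level of mild 1. ATP5IF1, which is no structural subunit but the inhibitor that stops ATP synthase from running in reverse, was 11.71, 11.66, 11.65, 11.54 and 11.30 in mild and 11.20, 11.36 and 11.44 in severe cows. Mild 5 alone overlapped, and the difference was -0.22 ± 0.08 (SE; limma adjusted p = 0.334). The catalytic head and central stalk had 5 members at -0.16 to -0.09. Of these 5, 0 had an unadjusted p under 0.05, where 7.46% of all genes were lower. The members were ATP5F1A, the alpha subunit, at -0.16, ATP5F1D at -0.15, ATP5F1B, the catalytic beta subunit, at -0.14, ATP5F1C at -0.11 and ATP5F1E at -0.09. The peripheral stalk had ATP5PO at -0.18 ± 0.09, ATP5PD at -0.07, ATP5PF at -0.07 and ATP5PB at -0.03 ± 0.08.

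To see whether related genes moved unequally, the difference between the genes of a pair was taken within each array. It was compared between groups for 7 pairs, formed from members chosen with earlier results of these data known. The pairs among ATP5MC1, ATP5MC2 and ATP5MC3 share genes, so their p-values are not independent. None of the 7 had an exact two-sided permutation p under 0.05 over the 462 splits of the cows. COX7A2 minus COX7A1 ran from 1.93 to 2.86 in mild and from 1.51 to 2.44 in severe cows, lower by 0.35 on average in severe cows (group means 2.30 and 1.94; exact p = 0.139, adjusted p = 0.323). ATP5MC1 minus ATP5MC3 averaged -2.44 ± 0.07 (SD, n = 5) and -2.52 ± 0.06 (SD, n = 6), with an exact p of 0.0823 (adjusted p = 0.318). ATP5MC1 minus ATP5MC2 averaged -2.98 and -3.21 (exact p = 0.0909, adjusted p = 0.318). COX8A minus COX8B averaged 1.43 and 1.44 (exact p = 0.857). For COX6A1 with COX6A2, NDUFA4 with NDUFA4L2 and ATP5MC2 with ATP5MC3 the exact p was 0.229, 0.459 and 0.260. A p above the threshold does not show that the genes of a pair moved alike.

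For 19 members the array held 21 further probe sets, 13 of them dim. The sign was that of the chosen probe set in 16 of 21. The 5 with the other sign were of ATP5F1D, COX6C, COX8B, NDUFA4L2 and NDUFB1, and 4 of these were dim. The fifth, of ATP5F1D, averaged 7.60 and differed by 0.55 ± 0.28 (SE), against -0.15 ± 0.11 for the chosen one. With 5.88% of all probe sets lower at an unadjusted p under 0.05, there were 2 of these 21. They were of NDUFA5 at -0.37 ± 0.12 and of NDUFA7, dim, at -0.30 ± 0.13.

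Genes that build or feed the complexes were read from the same fit, and 0 of them passed an adjusted p under 0.05. Of 49 assembly factors 28 were measured, 21 with a lower mean, and the median was -0.09. At an unadjusted p under 0.05 were 4 of 28, all lower, against 7.46% of all genes: TMEM126A, needed for the membrane arm of complex I, at -0.48 ± 0.12 (SE; limma adjusted p = 0.285), NDUFAF3 at -0.22 ± 0.08, and, named after their values were seen, NDUFAF8 at -0.23 and ACAD9 at -0.27. Of 18 genes for electron carriers 12 were measured, 11 with a lower mean, with a median of -0.11. Of these 12, 2 were lower at an unadjusted p under 0.05, against 7.46% of all genes. COQ2, an enzyme of coenzyme Q synthesis, averaged 8.61 ± 0.37 (SD, n = 5) in mild and 7.97 ± 0.16 (SD, n = 6) in severe cows (limma adjusted p = 0.284). Its groups did not overlap, with severe cows lower, as for 0.437% of all genes. HCCS, which attaches heme to cytochrome c, differed by -0.27 ± 0.11.

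Pyruvate dehydrogenase and the tricarboxylic acid cycle, which supply NADH and succinate, had 15 of 18 genes measured, 12 with a lower mean, and a median of -0.13. At an unadjusted p under 0.05 were 5 of 15, all lower, against 7.46% of all genes. MDH2, mitochondrial malate dehydrogenase, averaged 11.00 ± 0.23 (SD, n = 5) in mild and 10.59 ± 0.11 (SD, n = 6) in severe cows, a difference of -0.41 ± 0.11 (SE; limma adjusted p = 0.285), and CS, citrate synthase, 9.80 ± 0.11 and 9.50 ± 0.17. The other 3, named after their values were seen, were DLAT at -0.27, IDH3G at -0.26 and FH, fumarase, at -0.14. Outer membrane pores, import receptors and carriers had 18 of 21 genes measured, 14 with a lower mean, and a median of -0.11. The pyruvate carrier MPC2 at -0.18 ± 0.07 and the import subunit TIMM50 at -0.31 ± 0.12 (SE) had an unadjusted p under 0.05. These 2 of 18 are close to the 7.46% of all genes that were lower at this p.

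Factors that control mitochondrial genes did not share this direction. Of 19 listed 12 were measured, 6 with a lower mean, and the median was 0.02. HIF1A, the oxygen-sensitive transcription factor, averaged 10.81 ± 0.15 (SD, n = 5) in mild and 11.31 ± 0.37 (SD, n = 6) in severe cows, a difference of 0.50 ± 0.16 (SE; limma adjusted p = 0.308). It was the 1 of 12 with an unadjusted p under 0.05, which is near the 8.45% of all genes that were higher at this p. NRF1, an activator of many respiratory chain genes, differed by 0.16 ± 0.08. PPARGC1A, the coactivator of mitochondrial biogenesis, averaged 6.19 ± 0.75 (SD, n = 5) in mild and 5.77 ± 0.79 (SD, n = 6) in severe cows, a difference of -0.42 ± 0.42, so that neither direction could be told at this spread.

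Markers of other cells moved with the groups. Of 9 measured neutrophil markers, of 12 listed and 4 of them dim, 7 had a higher mean in severe cows, and 6 did not overlap between the groups, with severe cows higher, against 0.754% of all genes. The mean deviation over these markers ran from -1.50 to -0.56 in mild and from -0.18 to 1.86 in severe cows. A wider leukocyte list, of 21 genes, had 17 measured, 4 of them dim. It includes genes of leukocytes in general, such as PTPRC and CD53, so it is not separate from neutrophils. Of these 17 markers 16 had a higher mean, and the mean deviation ran from -1.10 to 0.09 in mild and from -0.36 to 1.24 in severe cows. The part of these cells in the subunit differences was not tested. Mild 5, low for the subunits, had a neutrophil value of -1.14, and severe 5, the highest severe cow for the subunits, one of 1.43. Other cows ran the other way. Mild 2 had the lowest neutrophil value, -1.50, and the highest mean deviation over the subunits, 0.15. Severe 4 had the highest neutrophil value, 1.86, and a mean deviation over the subunits of -0.16. With the neutrophil value as a covariate the median of the members was -0.20, and 7 were lower at an unadjusted p under 0.05, against 3.69% of genes. The difference was below 0 for 76 members, but not the same 76. NDUFB10, SDHD, COX6C and ATP5MC2 were then above 0, and COX4I1, COX7A1, COX6B2 and COX7A2L below it. Since every mild cow had a lower neutrophil value than every severe cow, this covariate and the regime are hard to separate.

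Epithelial, stromal, endothelial and smooth muscle marker values overlapped between the groups. Smooth muscle markers had a lower mean in severe cows for 6 of 8 and a median difference of -0.21, beside -0.16 for the subunits. The median was 0.20 for endothelial, -0.039 for epithelial and 0.02 for stromal markers. The mean deviations ran from -0.32 to 0.51 in mild and from -0.95 to 0.40 in severe cows for 13 epithelial markers of 14 listed. For 10 stromal markers of 12 they ran from -0.37 to 0.27 and from -0.13 to 0.21. For all 9 endothelial markers, 1 of them dim, they ran from -0.35 to 0.13 and from -0.21 to 0.28. For 8 smooth muscle markers of 9 listed they ran from -0.58 to 0.53 and from -0.87 to 0.40. Mild 5 was the lowest mild cow for smooth muscle markers, at -0.58. Severe 6, the lowest of all at -0.87, lay at -0.01 for the subunits. With the epithelial value as a covariate 30 members were lower at an unadjusted p under 0.05, against 7.35% of genes. The part of smooth muscle in the subunit differences was not tested.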

How the data were processed

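Endometrial RNA of 11 cows was hybridised to 1 Affymetrix bovine array each. The deposited values are log2 signals made with RMA, per the submitters' processing notes, a method that combines background correction, quantile normalization and a summary per probe set. The RMA version is not given in the sources used here, and the log2 scale was read from the values (2.63 to 14.6). Such normalization hides a change common to all transcripts, and the number of arrays limits the precision. Of 24128 probe sets 112 controls were left out. Symbols came from the platform annotation of 2016, in which 13292 probe sets had 1 symbol, 86 several and 10638 were not listed. They were matched by gene number (13263) to RefSeq names of ARS-UCD2.0, which renamed 0. All 80 members matched.

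Severe and mild cows were compared in R 4.3.3 by limma 3.58.1 (a linear model with eBayes and two-sided p-values, Benjamini-Hochberg over 24016 probe sets, threshold 0.05), and every adjusted p of a single gene is limma's. The procedure was tested on simulated data whose added changes were larger than the difference of any member. That test does not show whether differences as small as those of the members can be found. Isoform pairs were compared by exact permutation (scipy 1.17.1), adjusted over the 7 pairs. Members and lists were chosen with earlier results of these data known, so lists have counts and medians and no test. Named members are the 3 with the smallest p per complex, those without overlap, the largest opposite difference, all of complex II, isoform pairs, NDUFA4, COX7A2L and ATP5IF1, and up to 2 genes per other list. All other members were added to account for each. Replicate numbers follow sample order and only name cows, and each cow is 1 biological replicate. Blocks of the allocation and batches are not given per animal. Alternatives were a dim filter, 2 normalizations, array weights, a robust eBayes with trend, other uses of probe sets, covariates, thresholds and each cow left out. Figures were drawn with matplotlib 3.10.9 in Python 3.11.15. No sequence was used here.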

Additional observations from a re-analysis of the deposited data

Results flagged for a closer look

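Within groups, the lowest or highest cow stood far from the others in 9 of 68 groups of values examined, where chance flags about 1 in 20. In 8 of the 9 it was mild 5. Its mean deviation over all members was -0.11, with the next mild cow at 0.12. By complex it was -0.084 in complex I, where the next mild cow lay at 0.11, -0.11 in complex III (next 0.09), -0.15 in complex IV (next 0.05) and -0.16 in complex V (next 0.12). Among the genes examined singly, mild 5 was low for ATP5MC1 (8.74, next 9.20), ATP5MC3 (11.24, next 11.62) and NDUFA4 (11.11, next 11.37). These values are not independent, since the genes enter the means. The remaining value was COX6B2 in severe 5, at 6.28 with the next severe cow at 5.61.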

How the results depend on the processing

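No member passed an adjusted p of 0.05 in any setting run, nor one of 0.10 in the fit reported. Of 80 members 74 to 77 had a lower mean in every setting. At an unadjusted p under 0.01 the count of lower members was 6. The share of all genes at that p is not given here, so this count has no background beside it. The count of 26 lower at an unadjusted p under 0.05 was 44 after a second quantile normalization (9.15% of genes). It was 39 with array weights (9.85%) and 7 with the neutrophil value as a covariate (3.69%), and ran from 12 to 47 with 1 cow left out. It was 21 (5.88% of genes) without mild 2 and severe 5, an alternative chosen after seeing the data. These 2 were left out for their distance from the median array, 0.227 for mild 2 and 0.236 for severe 5. Severe 2, which was kept, was nearly as far, at 0.226. Medians of the complexes kept their sign and moved by less than the spread between cows, except complex II at -0.19 with the neutrophil covariate. Signs turned for some named members, also for ATP5MC2, COX6B2 and COX7A1, which were at -0.17, 0.13 and 0.12. COX4I1 was at -0.046 after a second quantile normalization. With the neutrophil covariate ATP5MC2 was at 0.075, COX4I1 at -0.057, COX6B2 at -0.20, COX7A1 at -0.20, COX7A2L at -0.18 and SDHD at 0.0071. SDHD was at 0.017 with array weights and from -0.058 to 0.035 with 1 cow left out, COX6A2 from -0.060 to 0.054 and COX7A2L from -0.0097 to 0.080. COX7A2L was at -0.025 without mild 2 and severe 5. The cause of these moves was not tested. No paired analysis was possible because replicate numbers follow sample order and pair no cows.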
